A study of Mus musculus with 13 samples.

Results

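The genes described here encode the proteins of the cytoplasmic ribosome. They were taken as the protein-coding mouse genes whose symbols start with Rpl, Rps or Rplp and a number, without the Rps6k kinase genes and without Rpl3, Rpl3l, Rpl22, Rpl22l1, Rpl39, Rpl39l, Rps27, Rps27l, Rpl7 and Rpl7l1. The rule took 81 symbols, of which 78 had transcripts in the deposited tables, out of 29455 named genes in all. Of these 78, 69 were canonical ribosomal protein genes, with 37 of the large subunit, 29 of the small subunit and the 3 stalk genes Rplp0, Rplp1 and Rplp2. The other 9 were 5 pseudogene-type symbols (Rpl10-ps3, Rpl36a-ps1, Rpl9-ps1, Rpl9-ps6 and Rps12-ps3), 3 retrogenes or paralogs (Rpl10l, Rpl36al and Rps27rt) and Rps19bp1, which codes for a protein that binds Rps19 and is not a ribosomal protein. No transcript of Rpl13, Rpl36-ps4 or Rpl41 was matched, and these are not analysed here.

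RNA was sequenced from wild-type mice of the FvB strain with the atria removed. Later cardiomyocytes, the contracting muscle cells, came from PN67 and PN30 (PN is the postnatal day), 1 library each, and neonatal cardiomyocytes from 2 libraries labelled PN1-2 and PN1. Later cardiac fibroblasts, the cells that make the connective tissue, came from PN60 and PN28, 1 library each, and neonatal fibroblasts from 2 libraries titled PN1-3 and PN1-2, both given an age of PN1 in another field. Ventricles were sampled once each at embryonic day 17 (E17), PN1, PN10, PN28 and PN90. Neonatal cardiomyocytes were isolated by letting other cells settle on a dish first, and PN30 and PN67 cardiomyocytes by enzyme perfusion of the coronary vessels, so age and isolation method cannot be told apart in this cell type. Fibroblasts of all ages were the cells that settled on the dish. Nothing in the labels says whether the 2 neonatal libraries of a cell type came from separate animals or cultures. The spread between them may therefore be technical. The p-values for the cell libraries rest on a spread pooled over both cell types. That pooled spread mixes the neonatal spread with the differences between PN67 and PN30 cardiomyocytes and between PN60 and PN28 fibroblasts, which differ in age. In whole ventricles, and in cell preparations that hold other cells, fewer cells of a type and less RNA per cell cannot be told apart.

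A ribosome is built from a small subunit, which reads the mRNA, and a large subunit, which joins the amino acids, and each holds ribosomal RNA together with many ribosomal proteins present in 1 copy each. The stalk proteins Rplp0, Rplp1 and Rplp2 form a flexible arm of the large subunit that recruits translation factors. Many ribosomal protein mRNAs begin with a C followed by a run of pyrimidines, the terminal oligopyrimidine tract, through which mTOR signalling controls their translation. The postnatal heart passes from growth by cell division to growth by enlargement of muscle cells, and demand for new ribosomes is known to accompany both kinds of growth.

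Start-site windows of the mouse genome show which of the genes below begin with such a tract at the start that RefSeq lists. Each window is 30 bases from RefSeq on build GRCm38.p6 (the deposited tables use mm9), read 5′ to 3′ on the gene's strand, with RefSeq's first transcribed base as base 16. Capitals mark the unbroken pyrimidine run that covers that base, and a window with no capitals has a purine there. Rps24 and Rpl24 are shown because they had the largest changes; at the start shown here Rps24 has a pyrimidine run whose first transcribed base is T, not C, and Rpl24 has no run. Rpl15, shown for its change in transcript use, and Rps6, Rplp2 and Rpl35 have the tract.
Rps24, chr14:24490663-24490692, plus strand: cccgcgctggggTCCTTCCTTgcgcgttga
Rpl24, chr16:55966260-55966289, plus strand: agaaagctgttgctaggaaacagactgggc
Rpl15, chr14:18270972-18271001, minus strand: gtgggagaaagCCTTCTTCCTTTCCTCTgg
Rps6, chr4:86857353-86857382, minus strand: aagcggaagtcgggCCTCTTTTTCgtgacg
Rplp2, chr7:141447636-141447665, plus strand: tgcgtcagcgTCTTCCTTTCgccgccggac
Rpl35, chr2:39005117-39005146, minus strand: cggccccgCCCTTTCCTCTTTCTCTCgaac
A first transcribed base of C followed by at least 4 pyrimidines was found at a RefSeq start of 12 of the 51 canonical members with a promoter in the table (23.5%), against 3.01% of 27025 gene symbols. A pyrimidine run of at least 8 bases within 40 bases of the start was present in 78.4% of the 51, against 32.6% of all symbols. The letters CTTTC, which such a run can contain, stood within 40 bases of the start in 47.1% of the 51, against 11.9% of all symbols. All were searched on the transcribed strand only, and the last 2 features were chosen after sequences had been seen. The first feature depends on the exact base that RefSeq lists as first, so genes without it may still begin with the tract.

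The ribosomal protein genes took up a large part of each transcriptome, and a smaller part at later ages in both cell types and in ventricles. FPKM counts fragments relative to the length of the transcript and the size of the library. The 78 genes together held 4.17% of the deposited FPKM of all genes in PN67 cardiomyocytes and 3.81% in PN30 cardiomyocytes, against 9.91% and 10.2% in the neonatal cardiomyocyte libraries. They held 8.51% in PN60 fibroblasts and 8.22% in PN28 fibroblasts, against 12.1% and 12.8% in the neonatal fibroblast libraries. Later and neonatal libraries did not overlap in either cell type, and later cardiomyocytes had the smallest shares of the 8 cell libraries. In ventricles the share was 7.201% at E17, 5.34% at PN1, 3.93% at PN10, 3.31% at PN28 and 3.67% at PN90. A share also moves with every other gene in the library, so it is given as a description. Leaving out mitochondrially encoded genes gave 4.32% and 3.94% in PN67 and PN30 cardiomyocytes, against 10.3% and 10.6% in neonatal ones.

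**Figure D1:**
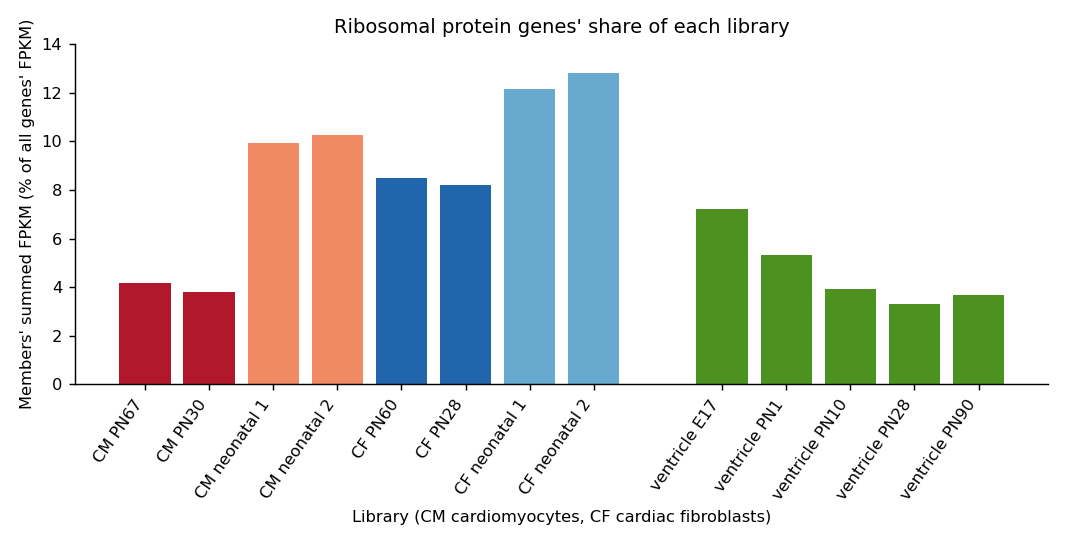
Summed FPKM of the 78 ribosomal protein genes as a percentage of the FPKM of all genes, 1 bar per library. Later cardiomyocytes stand at 4.17% and 3.81%, below their neonatal libraries at 9.91% and 10.2%, and ventricles reach their lowest share, 3.31%, at PN28.

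The balance between subunits varied much less than the total. The summed FPKM of the small-subunit genes divided by that of the large-subunit genes was 1.20 in PN67 and 1.17 in PN30 cardiomyocytes, against 1.17 and 1.18 in neonatal cardiomyocytes. It was 1.12 in PN60 and 1.10 in PN28 fibroblasts, against 1.16 and 1.17 in neonatal fibroblasts. Ventricles lay between 0.906 and 0.957. Cell libraries were made with a TruSeq RNA protocol, and ventricle libraries with ScriptSeq v2 after Ribo-Zero depletion of ribosomal RNA, so levels of ventricles and cells were not tested against each other. The order of the genes differed between these preparations. Across the 69 canonical genes, Spearman's rho of log2 levels was 0.974 between later and neonatal cardiomyocytes, 0.983 between later and neonatal fibroblasts and 0.988 between PN90 and PN1 ventricles, but 0.589 between PN90 ventricles and later cardiomyocytes. Libraries of 1 preparation share their kit and gene lengths, so these correlations are descriptions. Relative to later cardiomyocytes, PN90 ventricles had a log2 level 4.42 higher for Rps23 and 3.00 lower for Rps14, the 2 ends of the range.

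Some facts of the whole series bear on these results. Total fragment counts are not given, so depth is unknown in absolute terms; deposited coverage divided by FPKM, a relative guide to depth, had medians of 19.5 to 32.8 per library, highest in fibroblasts. In the cell preparations, the summed level of 3 erythroid markers was 720 and 1101 FPKM in PN67 and PN30 cardiomyocytes, against 15732 and 20584 FPKM in neonatal cardiomyocytes. The summed level of 10 cardiomyocyte markers was 45389 and 45934 FPKM in PN67 and PN30 cardiomyocytes against 13139 and 11972 FPKM in neonatal ones. The same 10 markers summed to 35.4 and 27.1 FPKM in PN60 and PN28 fibroblasts, against 1323 and 1168 FPKM in neonatal fibroblasts. The 8 macrophage and leukocyte markers summed to 857 and 1059 FPKM in PN60 and PN28 fibroblasts, against 111 and 213 FPKM in neonatal fibroblasts. All 8 were higher by limma, where 19.7% of all genes were. All 6 markers of proliferating cells were lower at later ages in both cell types, with a median log2 change of -2.87 in cardiomyocytes and -2.88 in fibroblasts. All 6 endothelial markers were lower in later cardiomyocytes, summing to 285 and 274 FPKM against 1037 and 1222 FPKM in neonatal ones, and 5 of 6 were lower in later fibroblasts. Of all genes tested, 30.3% were lower in later cardiomyocytes and 21.4% in later fibroblasts. In cardiomyocytes the macrophage and leukocyte markers summed to 277 and 256 FPKM at PN67 and PN30 against 79.7 and 104 FPKM in neonatal cells. Of the 8, 4 were higher and 1 lower, where 36.9% of all genes were higher and 30.3% lower. Of 7 cardiac fibroblast markers tested, 3 were higher and 2 lower in later fibroblasts, where 19.7% of all genes were higher and 21.4% lower. They summed to 2193 and 2045 FPKM in PN60 and PN28 fibroblasts, against 2364 and 2383 FPKM in neonatal fibroblasts. In later cardiomyocytes 3 of the 7 were higher and 3 lower, where 36.9% of all genes were higher and 30.3% lower. The part of these shifts in the results on ribosomal protein genes was not tested.

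The comparison of later with neonatal cardiomyocytes asked how expression changes as heart muscle cells mature. The ribosomal protein genes fell almost without exception. Of the 75 genes that averaged 1 FPKM or more over the cell libraries, 73 were lower in later cardiomyocytes and none was higher (limma on log2(FPKM + 1), Benjamini-Hochberg adjusted p below 0.05 over all genes), where 30.3% of the 12099 genes tested were lower and 36.9% higher (67.3% in either direction). Their median log2 change was -0.93, against 0.09 over all genes tested. In all 75 genes both later libraries lay below both neonatal libraries; such a gap in this direction was seen for 4998 of the 12099 genes. The change was of like size in both subunits, with medians of -0.94 for the 37 large-subunit genes, of which 37 were lower, and -0.94 for the 29 small-subunit genes, of which 28 were lower. The quartiles over the 75 genes were -1.09 and -0.73. With any 1 of the 8 libraries left out, between 72 and 75 genes were lower.

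**Figure D2:**
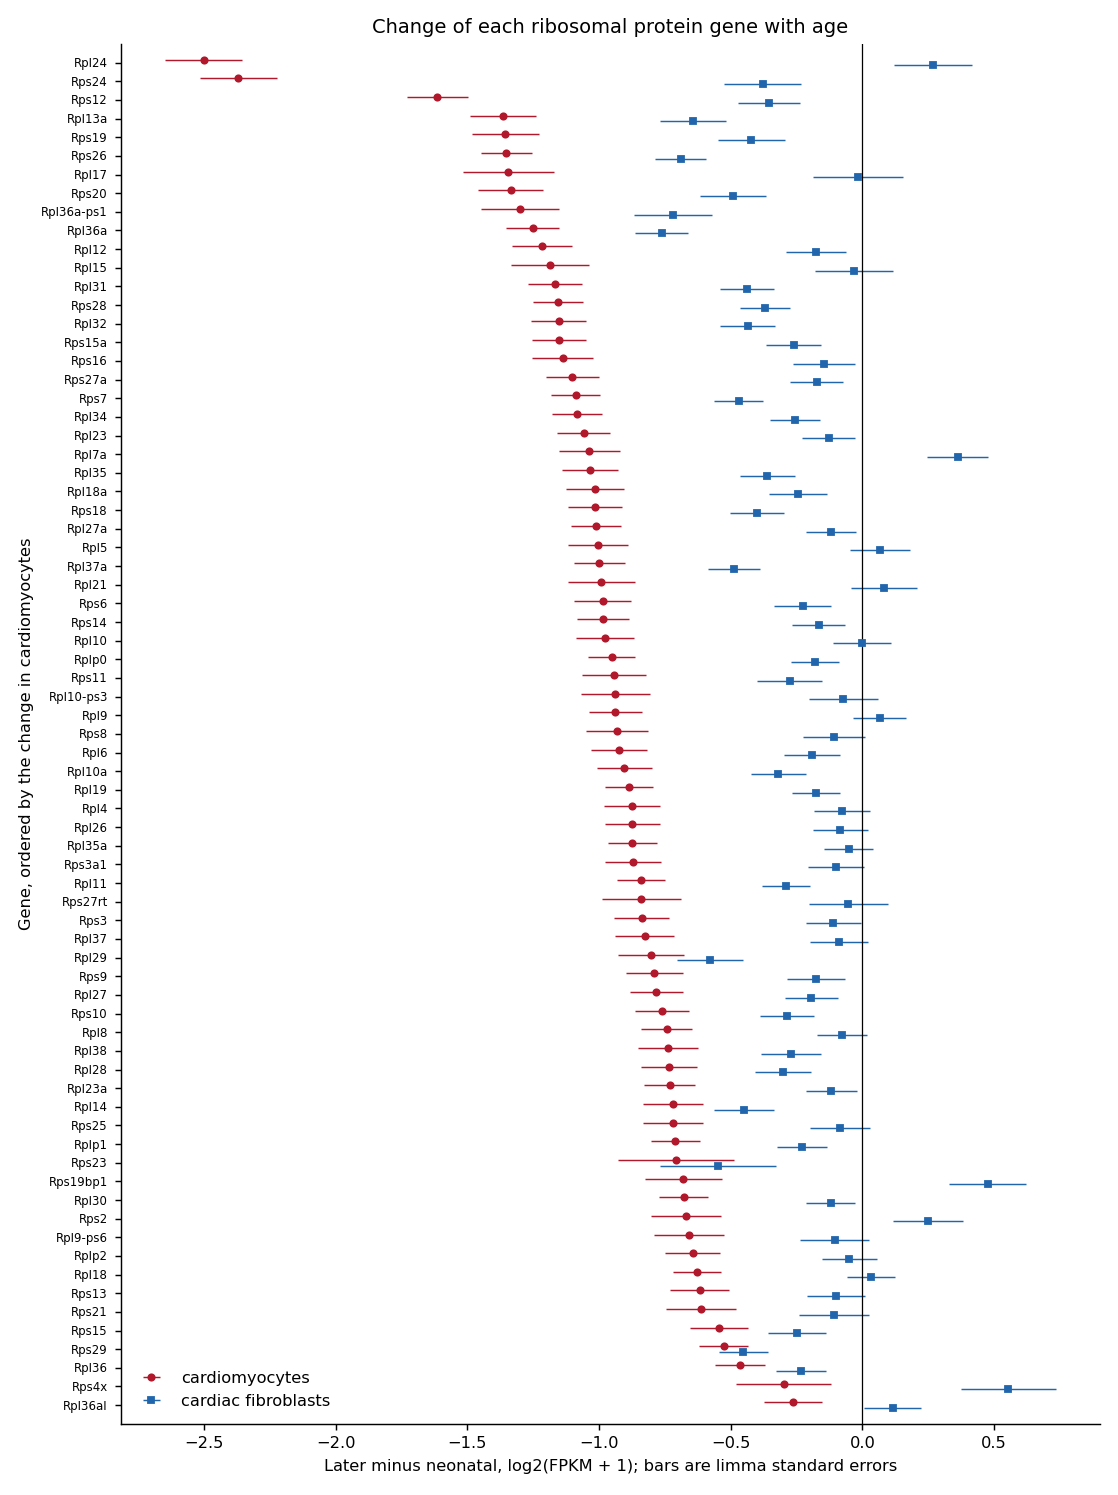
Later minus neonatal change of log2(FPKM + 1) for 73 of the 75 tested genes, in cardiomyocytes (circles) and in cardiac fibroblasts (squares), ordered by the cardiomyocyte change; bars are limma standard errors. All cardiomyocyte points lie below 0, between -2.50 for Rpl24 and -0.26 for Rpl36al, and most fibroblast points lie nearer to 0.

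Rps24 and Rpl24 fell most. Rps24 is a small-subunit protein that is mutated in some human patients with Diamond-Blackfan anaemia, a failure of red cell production. The gene lies at chr14:25309903-25315368 (mm9). It had 34.7 FPKM in PN67 and 29.7 FPKM in PN30 cardiomyocytes, against 169 and 171 FPKM in neonatal cardiomyocytes. Its log2 change was -2.37 ± 0.15 (SE; limma adjusted p = 1.37e-05). Its levels in neonatal cardiomyocytes were within the range of its fibroblast levels, 121 to 190 FPKM. Rpl24 is a large-subunit protein whose gene carries the belly spot and tail mutation of mice. The gene lies at chr16:55966388-55971548 (mm9). It had 1.63 and 2.16 FPKM in PN67 and PN30 cardiomyocytes, against 14.1 and 16.6 FPKM in neonatal cardiomyocytes, a log2 change of -2.50 ± 0.15 (adjusted p = 1.14e-05 by limma). Rpl24 stood far below most ribosomal protein genes in every library. The protein-coding transcript Rpl24-201 was at 1.55e-05 deposited FPKM in PN67 cardiomyocytes and 0.421 deposited FPKM in PN30 cardiomyocytes, against 3.67 and 6.23 deposited FPKM in neonatal ones, and non-coding transcripts of the gene held the rest. Its value therefore depends on how Cufflinks split fragments among 4 overlapping transcripts.

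Next came Rps12, Rpl13a, Rps19 and Rps26. Rps12, a small-subunit protein, had 122 and 106 FPKM in PN67 and PN30 cardiomyocytes, against 342 and 356 FPKM in neonatal cardiomyocytes, and changed by -1.61 ± 0.12 (log2; limma adjusted p = 2.48e-05). Rps19 and Rps26, which are also mutated in human Diamond-Blackfan anaemia, changed by -1.36 ± 0.13 and -1.35 ± 0.10 on the log2 scale (limma adjusted p = 7.41e-05 and 2.40e-05). Rps26 had 311 and 306 FPKM in PN67 and PN30 cardiomyocytes against 779 and 799 FPKM in neonatal ones. Rpl13a, a large-subunit protein also known as a brake on translation of inflammatory mRNAs in human myeloid cells, changed by -1.36 ± 0.12 (log2; limma adjusted p = 6.53e-05). The later and neonatal libraries of these genes did not overlap.

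Rpl36al, Rps4x, Rpl36, Rps29 and Rps15 were among the genes with the smallest changes. Rpl36al, a paralog of Rpl36a, had 179 and 190 FPKM in PN67 and PN30 cardiomyocytes, against 222 and 222 FPKM in neonatal cardiomyocytes, and its log2 change of -0.26 ± 0.11 did not pass the test (limma adjusted p = 0.0626). Rpl36a itself had 253 and 232 FPKM against 597 and 561 FPKM in the same libraries, with a log2 change of -1.25 ± 0.10 (limma adjusted p = 3.73e-05). The difference between the changes of this pair was not tested. Rps4x, the X-linked small-subunit gene, was at only 6.34 and 6.78 FPKM in PN67 and PN30 cardiomyocytes, against 8.48 and 8.11 FPKM in neonatal ones, and its log2 change of -0.30 ± 0.18 did not pass the test either (limma adjusted p = 0.177). With FPKM as deposited Rpl36al and Rps4x were both lower (log2 changes -0.61 and -0.60, limma adjusted p = 0.00132 and 0.0149). Rps29 had 1046 and 1019 FPKM in PN67 and PN30 cardiomyocytes against 1474 and 1500 FPKM in neonatal ones. It was lower, by -0.53 ± 0.09 (log2; limma adjusted p = 0.00164), as were Rpl36 and Rps15 by -0.47 and -0.55.

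Since falls were unequal, the make-up of the ribosomal protein mRNA pool shifted. Rps29 made up 4.91% and 5.32% of the members' summed FPKM in PN67 and PN30 cardiomyocytes, against 4.004% and 4.008% in neonatal cardiomyocytes. Rplp1, the most abundant member by FPKM in each of the 13 libraries, made up 5.58% and 5.83% against 5.05% and 5.10%. Shares of single genes thus moved by less than 1.5 percentage points in both cases. The change of a gene in cardiomyocytes bore little relation to its level (Spearman's rho 0.168 across the 69 canonical genes) or to the length of its mRNA (rho -0.246), both given as descriptions across genes, which are not replicates.

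The stalk genes and some members with known further roles followed the majority. Rplp0 had 633 and 598 FPKM in PN67 and PN30 cardiomyocytes, against 1166 and 1216 FPKM in neonatal cardiomyocytes, a log2 change of -0.95 ± 0.09 (limma adjusted p = 7.26e-05). Rplp1 and Rplp2 changed by -0.71 ± 0.09 and -0.64 ± 0.10 (log2; limma adjusted p = 0.000383 and 0.00107). The next 4 genes were chosen for their roles, with their values known. Rps6, the substrate of the S6 kinases, changed by -0.99 ± 0.11. Rpl5 and Rpl11, which can bind Mdm2 and so stabilise p53, changed by -1.005 ± 0.11 and -0.84 ± 0.09. Rps27a, made as a fusion with ubiquitin, changed by -1.10 ± 0.10. Each of these 4 log2 changes had a limma adjusted p between 6.61e-05 and 0.000172.

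**Figure D3:**
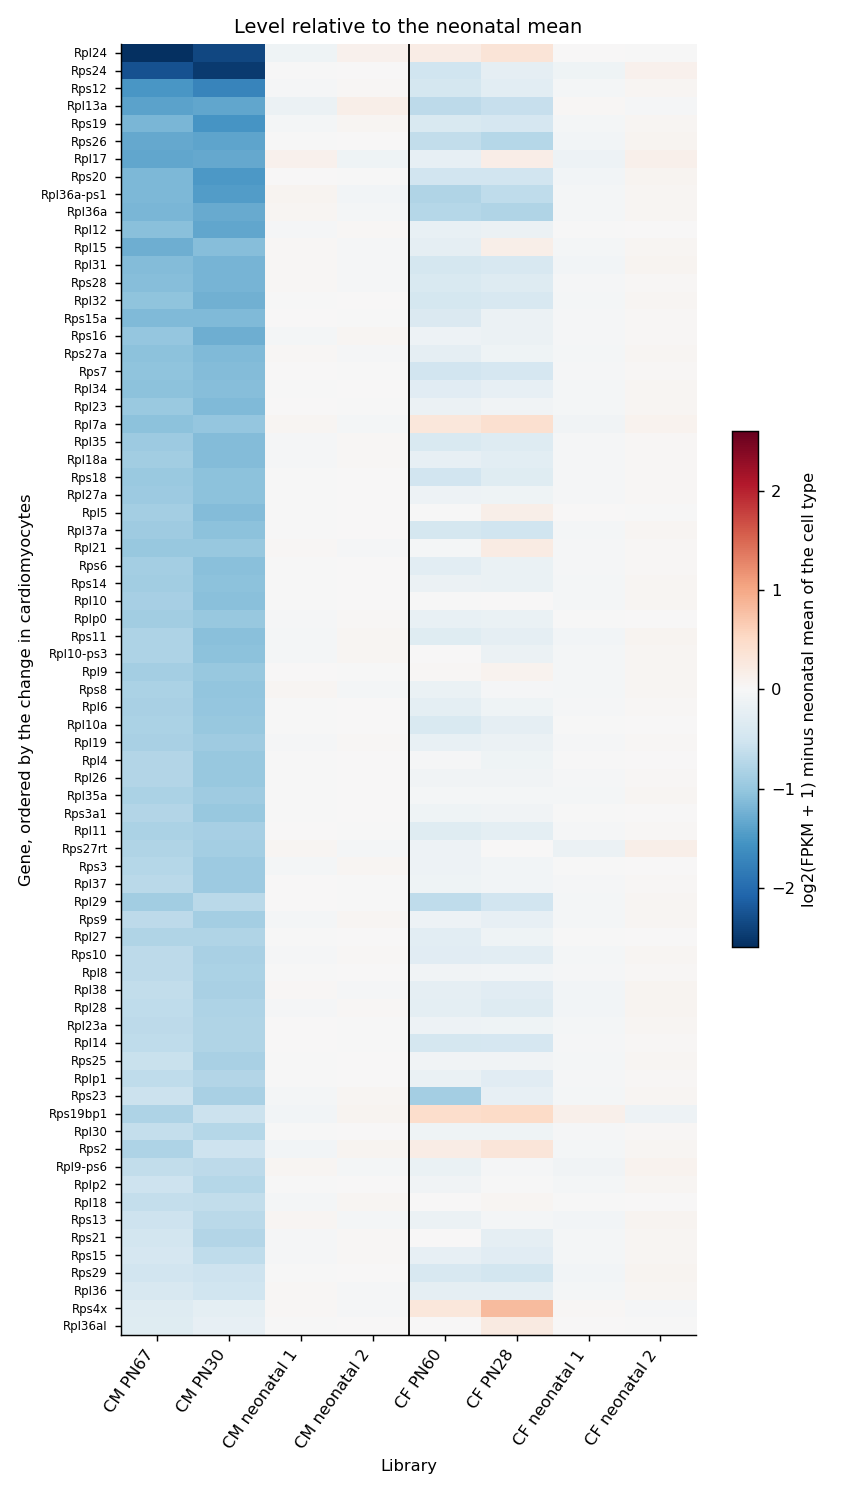
Level of 73 of the 75 tested genes in each cell library as log2(FPKM + 1) minus the mean of the 2 neonatal libraries of the same cell type; genes run down the page in the order of their cardiomyocyte change and the line separates cardiomyocytes from fibroblasts. Both later cardiomyocyte columns are below 0 for all 73 genes shown, while the later fibroblast columns are paler and include positive cells for Rpl7a, Rps4x and Rps19bp1.

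In cardiac fibroblasts the change with age was smaller, and how many genes passed depended on scaling. After scaling libraries by the median ratio over genes, 20 of the 75 genes were lower in later fibroblasts and 3 were higher (limma adjusted p below 0.05), where 21.4% of all genes tested were lower and 19.7% higher (41.1% in either direction). Their median log2 change was -0.18, against -0.03 over all genes. With FPKM as deposited 62 were lower and 0 higher, where 4656 of all genes were lower and 1474 higher. The median over all genes then also moved, to -0.29. The members' median minus that of all genes went only to -0.22, against -0.15 under the median ratio. Both later fibroblast libraries lay below both neonatal ones for 55 of the 75 genes and above them for 6, where 4526 of the 12099 genes lay below and 3912 above. Leaving out 1 library at a time gave between 4 and 22 lower genes. There were 4 without the second neonatal fibroblast library, 11 without the first and 12 without PN60 fibroblasts.

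Rpl36a, a large-subunit gene, changed most in fibroblasts. It had 410 and 400 FPKM in PN60 and PN28 fibroblasts, against 660 and 716 FPKM in neonatal fibroblasts, a log2 change of -0.76 ± 0.10 (limma adjusted p = 0.00110). Rpl36a-ps1, a pseudogene-type copy of it with which reads can be shared, changed by -0.72 ± 0.15 (limma adjusted p = 0.00736). Rps26 had 708 and 663 FPKM in PN60 and PN28 fibroblasts against 1053 and 1161 FPKM in neonatal fibroblasts, and changed by -0.69 ± 0.10 (log2; limma adjusted p = 0.00146). Rpl13a and Rpl29 were lower by -0.64 ± 0.12 and -0.58 ± 0.13 (log2; limma adjusted p = 0.00576 and 0.00928). Rps24, which fell so far in cardiomyocytes, had 121 and 149 FPKM in PN60 and PN28 fibroblasts against 161 and 190 FPKM in neonatal ones, and did not pass (log2 change -0.38 ± 0.15, limma adjusted p = 0.0740). None of the 3 stalk genes passed, with log2 changes of -0.23 to -0.05.

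Rps4x, Rps19bp1 and Rpl7a were higher in later fibroblasts under the median ratio. Rps4x had 14.6 and 21.6 FPKM in PN60 and PN28 fibroblasts, against 12.1 and 11.6 FPKM in neonatal fibroblasts, a log2 change of 0.55 ± 0.18 (limma adjusted p = 0.0434). Rpl7a, a large-subunit protein, had 77.0 and 83.9 FPKM against 58.6 and 66.3 FPKM in the same order of libraries, a log2 change of 0.36 ± 0.12 (limma adjusted p = 0.0399). Rps19bp1 changed by 0.48 ± 0.15 (log2; limma adjusted p = 0.0350). None of these 3 passed with FPKM as deposited, where the log2 changes were 0.24 for Rps4x, 0.03 for Rpl7a and 0.15 for Rps19bp1 (limma adjusted p = 0.280, 0.852 and 0.431). Nor did they pass without the PN28 fibroblast library (limma adjusted p = 0.0767, 0.0720 and 0.0576), or without any 1 of the 4 neonatal libraries. Without the PN67 or the PN30 cardiomyocyte library, 1 of the 3 passed, Rps19bp1.

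The changes of the cell types differed from each other. The change in cardiomyocytes minus the change in fibroblasts was negative for all 75 genes and passed the test of the difference for 66 (limma interaction, adjusted p below 0.05), all lower, where 26.6% of all genes tested were lower and 32.3% higher (58.9% in either direction). The median difference of the log2 changes was -0.73, against 0.09 over all genes. The largest differences were -2.77 ± 0.21 for Rpl24, -1.99 ± 0.21 for Rps24, -1.40 ± 0.16 for Rpl7a, -1.33 ± 0.24 for Rpl17 and -1.26 ± 0.17 for Rps12 (limma adjusted p between 4.92e-05 and 0.00271). The difference was the smallest for Rps29, at -0.07 ± 0.13 (limma adjusted p = 0.650), which had fallen by like amounts in both cell types. Rpl14, Rpl29, Rpl36, Rpl36al, Rps15, Rps21 and Rps23 also did not pass. The count was as low as 51 without the second neonatal cardiomyocyte library. The order of the changes was only weakly shared, with a Spearman's rho of 0.247 across the 69 canonical genes between the changes in the 2 cell types.

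Set against fibroblasts of like age, cardiomyocytes had slightly lower levels when neonatal and lower levels by a wider margin later. In neonatal cardiomyocytes 11 of 75 genes were lower than in neonatal fibroblasts and none was higher, where 19.3% of all genes were lower and 21.6% higher (40.9% in either direction), and the median log2 difference was -0.20. In later cardiomyocytes 71 of 75 were lower than in later fibroblasts and none was higher, where 39.3% of all genes were lower and 38.6% higher (77.9% in either direction), with a median of -0.92. Both neonatal cardiomyocyte libraries lay below both neonatal fibroblast ones for 61 of the 75 genes and above them for 5. Of the 12099 genes tested, 5047 lay below and 4774 above. In the later cells 72 of the 75 lay below and 0 above, where 5336 of the 12099 lay below and 5191 above. Rps12 differed most between neonatal cells, with 342 and 356 FPKM in neonatal cardiomyocytes against 512 and 551 FPKM in neonatal fibroblasts (log2 difference -0.60 ± 0.12, limma adjusted p = 0.00548). Rpl10, an X-linked large-subunit gene needed for subunit joining, was lower in neonatal cells by -0.56 ± 0.11 and later by -1.53 ± 0.11 (log2; limma adjusted p = 0.00591 and 7.78e-06). Its later values were 145 and 124 FPKM in PN67 and PN30 cardiomyocytes against 389 and 390 FPKM in PN60 and PN28 fibroblasts. Rps29, Rpl36 and Rps23 did not differ beyond their spread in the later cells (log2 differences 0.01 ± 0.09, -0.05 ± 0.09 and -0.33 ± 0.22, limma adjusted p = 0.944, 0.672 and 0.201). The neonatal count was between 2 and 5 without any 1 of the 4 neonatal libraries, and it was 43 when mitochondrially encoded genes were removed and libraries were scaled to equal sums.

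In ventricles the ribosomal protein genes were lower than at E17 for nearly all members, most so at PN10 and PN28. Of the 74 genes tested, 71 were below their E17 level at PN1, 73 at PN10, 74 at PN28 and 70 at PN90. Such counts against the single E17 library were not made over all genes, so they are descriptions. The median log2 level relative to E17 was -0.27 at PN1, -0.78 at PN10, -0.74 at PN28 and -0.46 at PN90. The slope per stage step was negative for all 74, where it was negative for 5812 of the 11634 genes tested. It passed the limma test for only 4 of the 74, with 0 positive calls. Of all genes tested, 16.2% had a called falling slope and 19% a rising one (35.2% in either direction). Calls were thus rarer among the members than over all genes. The median slope was -0.14 log2 units per stage, against 0.00 over all genes. Each stage had 1 library, and the course was not a straight line for most members.

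**Figure D4:**
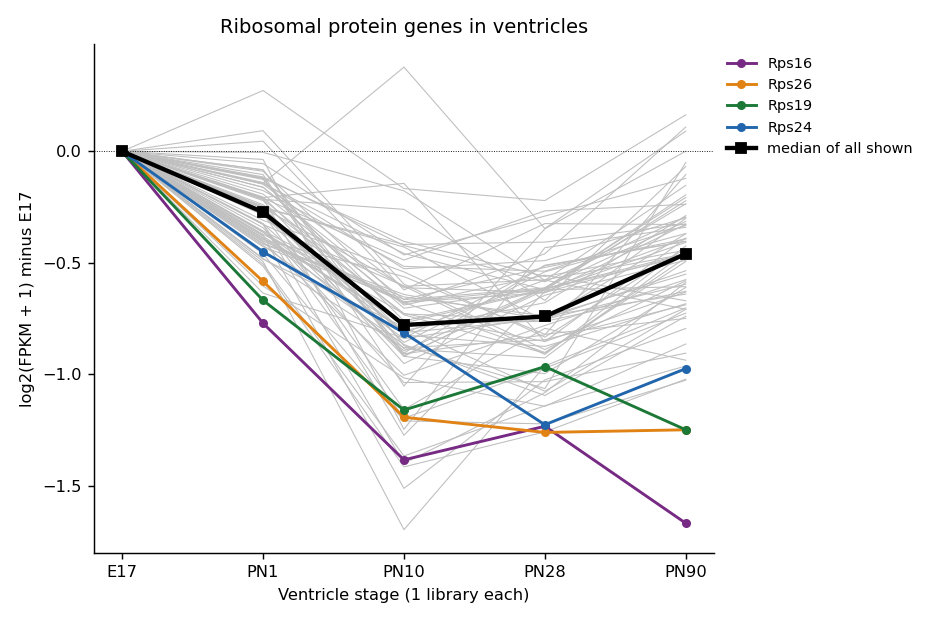
Level of each of the 74 tested genes in ventricles relative to E17, as log2(FPKM + 1), by stage in order; thin lines are genes, coloured lines the 4 genes with a called slope and the black line the median. The median is at -0.78 at PN10 and -0.46 at PN90, while Rps16 ends lowest, at -1.67.

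The 4 ventricle calls were small-subunit genes. Rps16, a small-subunit protein, had 190 FPKM at E17, 111 at PN1, 72.3 at PN10, 80.4 at PN28 and 59.2 at PN90, a slope of -0.38 ± 0.08 log2 units per stage (limma adjusted p = 0.0152). Rps26 had 1066, 711, 466, 445 and 448 FPKM at the same stages, a slope of -0.32 ± 0.08 (limma adjusted p = 0.0326). Rps24 had 448, 327, 254, 191 and 227 FPKM, a slope of -0.27 ± 0.07 (limma adjusted p = 0.0340). Rps19 had a slope of -0.28 ± 0.08 (limma adjusted p = 0.0342). Rps23, a small-subunit protein of the decoding centre, was among the flattest, with a slope of -0.02 ± 0.08 (limma adjusted p = 0.876). It had 363, 438, 323, 311 and 406 FPKM at the 5 stages, so its PN90 level was above that at E17. The count of falling slopes was 31 with FPKM as deposited, where 3445 of all genes had one and the median over all genes moved to -0.09. It was 0 without E17, 1 without PN1 or without PN28, 11 without PN10 and 15 without PN90. Over the same stages the summed FPKM of 7 cardiomyocyte markers was 10575, 15931, 18008, 26908 and 29482, and that of the proliferation markers 508, 258, 71.2, 10.6 and 9.68. The erythroid markers summed to 4982 FPKM at E17 and to 180, 235, 195 and 179 FPKM at the later stages. The macrophage and leukocyte markers summed to 24.9, 25.7, 48.0, 159.7 and 119 FPKM. All 6 of them that were tested had a rising slope, where 19% of all genes had one. The part of these markers in the ventricle results was not tested.

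Transcript use changed within some members between later and neonatal cardiomyocytes, less often than over all isoforms tested. Of 11170 isoforms tested, 84 belonged to 34 ribosomal protein genes, and 10 of these, in 6 genes, changed their share of the gene's FPKM between later and neonatal cardiomyocytes (limma adjusted p below 0.05 and at least 10 percentage points), where 17.6% of all isoforms did. Rpl15 showed the largest shift. Its transcript Rpl15-202 has 1922 nucleotides with a 3′ untranslated region of 1188 nucleotides in GENCODE M21, while Rpl15-203 has 802 nucleotides with 51 in that region and codes for the same length of protein, 615 nucleotides of coding sequence. Rpl15-202 made up 85.5% of Rpl15 FPKM in PN67 and 82.2% in PN30 cardiomyocytes, against 45.3% and 47.8% in neonatal cardiomyocytes (limma adjusted p = 6.09e-05). Rpl15-201 and Rpl15-203 fell by 20.8 and 12.2 percentage points (limma adjusted p = 0.000132 and 0.000368). The level of Rpl15-202 was 22.2 and 24.8 deposited FPKM in PN67 and PN30 cardiomyocytes against 38.0 and 38.8 FPKM in neonatal ones, so it fell less than the shorter transcripts and did not rise. In fibroblasts Rpl15-202 made up 39.3% and 39.2% at PN60 and PN28, against 45.8% and 44.7% in neonatal cells (limma adjusted p = 0.196).

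Rpl21, Rps2, Rpl27 and Rps24 followed, with isoforms that gained share in later cardiomyocytes. Rpl21-201, which also has a long 3′ untranslated region (1079 nucleotides, against 32 and 33 in Rpl21-202 and Rpl21-203), made up 89.3% and 86.2% in PN67 and PN30 cardiomyocytes, against 71.0% and 69.9% in neonatal cardiomyocytes (limma adjusted p = 0.00380). In fibroblasts its share was 53.6% and 43.0% at PN60 and PN28, against 62.5% and 64.3% in neonatal cells (limma adjusted p = 0.0488), the opposite direction. Rps2-208 made up 82.8% and 84.8% in PN67 and PN30 cardiomyocytes against 67.6% and 65.9% in neonatal ones (limma adjusted p = 0.000560), and 38.0% and 37.0% in PN60 and PN28 fibroblasts against 52.4% and 50.6% in neonatal fibroblasts (limma adjusted p = 0.0176). Rpl27-201 gained 14.99 points and Rpl27-202 lost 12.7 points in cardiomyocytes (limma adjusted p = 0.000216 and 0.000184). Rps24 shifted toward Rps24-201, of 468 nucleotides, from Rps24-202, which has 837 nucleotides in the deposited tables but 519 in GENCODE M21, so the structure behind the shift is uncertain. Rps24-201 made up 48.8% and 38.4% in PN67 and PN30 cardiomyocytes, against 20.2% and 19.0% in neonatal cardiomyocytes (limma adjusted p = 0.000912), and 39.0% to 48.0% in the 4 fibroblast libraries. The retained-intron transcript Rpl24-202 gained 20.8 points in cardiomyocytes (limma adjusted p = 0.000871), with both later levels under 1 deposited FPKM.

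**Figure D5:**
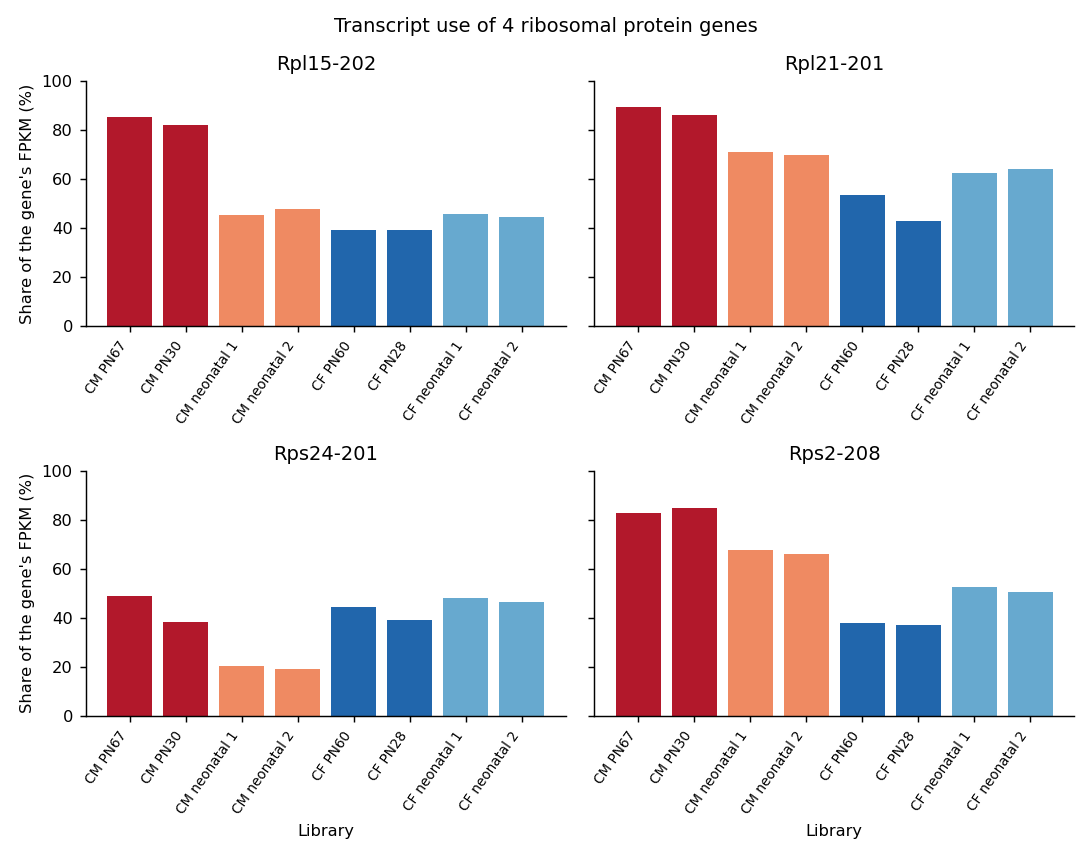
Share of a gene's FPKM held by Rpl15-202, Rpl21-201, Rps24-201 and Rps2-208 in each cell library, 1 bar per library. Rpl15-202 stands at 85.5% and 82.2% in later cardiomyocytes against 45.3% and 47.8% in neonatal ones, and Rps24-201 at 48.8% and 38.4% against 20.2% and 19.0%.

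In fibroblasts 4 of the 84 isoforms changed, where 3.91% of all isoforms did. These were Rpl21-201 and Rps2-208, Rpl10a-201 (fell by 11.6 points, limma adjusted p = 0.0393) and Rpl24-204 (fell by 21.3 points, limma adjusted p = 0.0227). The count was 0 without PN28 fibroblasts or without the second neonatal fibroblast library. The changes of 15 isoforms differed between the cell types by the interaction test, where 13.9% of all isoforms did, led by Rpl15-202 with a difference of 43.3 points (limma adjusted p = 0.000337). Between the cell types, 6 isoforms differed in neonatal cells, where 7.22% of all isoforms did, and 21 in later cells, where 27.5% did. In ventricles, where isoform use was not tested, Rpl15-202 held 45.9% at E17, 42.2% at PN1, 57.5% at PN10, 54.5% at PN28 and 67.3% at PN90. Rps24-201 held 81.9% to 88.7% in ventricles, and Rpl21-201 only 4.51% to 5.90%, both outside the range of the cell libraries. Transcripts with a retained intron held 2.79% and 2.56% of the members' FPKM in PN67 and PN30 cardiomyocytes against 3.37% in both neonatal libraries, and 4.79% and 4.97% in PN60 and PN28 fibroblasts against 4.38% and 4.23% in neonatal fibroblasts.

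Whether a start-site tract went with the size of the fall was described only. The median log2 change in cardiomyocytes was -0.82 over the 12 genes with a first transcribed C and at least 4 further pyrimidines, and -0.95 over the 39 canonical members without one. The 12 ranged from -1.19 to -0.61, within the range of the 39, from -2.50 to -0.30. Both Rps24 and Rpl24 were among the 39. The split rests on the base that RefSeq lists as first. Rpl7a, Rpl27a, Rpl34 and Rps9, with runs of 21, 19, 18 and 9 pyrimidines over that base, had a T there. They were therefore counted among the 39, and a start listed a few bases off would move a gene between the groups.

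Other genes of the same pathway moved in part with the ribosomal proteins. Rack1, Fau and Rpsa, which code for ribosomal components but lie outside the rule, were lower in later cardiomyocytes, with log2 changes of -0.99, -1.05 and -0.85 (limma adjusted p below 0.05 for each). Rpsa, a small-subunit protein, had 188 and 180 FPKM in PN67 and PN30 cardiomyocytes against 329 and 336 FPKM in neonatal ones. Of 24 other genes whose mRNAs carry a terminal oligopyrimidine tract, 15 were lower and 3 higher in later cardiomyocytes (median -0.50), where 30.3% of all genes were lower and 36.9% higher. Pabpc1, a poly(A) binding protein, changed by -2.44 ± 0.11, Hnrnpa1, a splicing factor, by -1.51 ± 0.10 and Npm1, a nucleolar chaperone, by -1.67 ± 0.12 (log2; limma adjusted p between 5.66e-06 and 2.49e-05). In fibroblasts 4 of the 24 were lower and 3 higher, smaller shares than the 21.4% and 19.7% of all genes, with a median of 0.07 that was -0.27 with FPKM as deposited.

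Ribosome assembly factors, the nucleolar proteins and helicases that build ribosomes, had different counts in the cell types. In later cardiomyocytes 28 of 65 were lower, 2 were higher and 35 did not pass, where 30.3% of all genes were lower and 36.9% higher, and the median log2 change was -0.40. The smallest adjusted p among them belonged to Gnl3 (-1.54 ± 0.12), Nop58 (-1.50 ± 0.14) and Ddx21 (-1.47 ± 0.14; limma adjusted p between 3.57e-05 and 7.19e-05). With FPKM as deposited 41 of the 65 were lower and 1 higher in cardiomyocytes, where 4867 of all genes were lower and 3363 higher. In later fibroblasts 53 of the 65 were higher and 0 lower (median 0.91), where 19.7% of all genes were higher. With FPKM as deposited 40 of the 65 were higher in fibroblasts, where 1474 of all genes were. Nop58, a core protein of small nucleolar particles, had 154 and 140 FPKM in PN60 and PN28 fibroblasts against 63.7 and 54.96 FPKM in neonatal fibroblasts, and 8.36 and 10.2 FPKM in PN67 and PN30 cardiomyocytes against 26.8 and 29.0 FPKM in neonatal cardiomyocytes. Nhp2 and Ncl, also nucleolar, were higher in later fibroblasts by 1.59 ± 0.16 and 0.96 ± 0.11 (log2; limma adjusted p = 0.000311 and 0.000508). By the interaction test the change in cardiomyocytes was lower than that in fibroblasts for 50 of the 65 and higher for 1. Of all genes tested, 26.6% were lower and 32.3% higher by this test.

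Of the genes of RNA polymerase I, which makes ribosomal RNA, 5 of 14 were higher and 4 lower in later cardiomyocytes and 3 higher and 0 lower in fibroblasts. With FPKM as deposited the cardiomyocyte counts were 2 and 6, where 3363 of all genes were higher and 4867 lower. The fibroblast counts were then 3 and 3, where 1474 of all genes were higher and 4656 lower. Under the median ratio the cardiomyocyte shares were near those of all genes, of which 36.9% were higher and 30.3% lower. They show nothing particular to the list. In later fibroblasts 19.7% of all genes were higher and 21.4% lower, so only the higher share was near that of all genes. The list's median log2 change there was 0.42, with 10 of the 14 positive, and 0.15 with FPKM as deposited. Among 29 regulators around mTOR and Myc, 10 were higher and 8 lower in later cardiomyocytes, again near the shares of all genes. With FPKM as deposited 5 were higher and 12 lower, where 3363 of all genes were higher and 4867 lower. Myc, a transcription factor that activates ribosomal genes, had 3.32 and 1.76 FPKM in PN67 and PN30 cardiomyocytes against 79.7 and 80.6 FPKM in neonatal cardiomyocytes, a log2 change of -4.55 ± 0.21 (limma adjusted p = 6.28e-06). It had 286 and 247 FPKM in PN60 and PN28 fibroblasts against 165 and 135 FPKM in neonatal fibroblasts. In ventricles, made with another kit, Myc was at 2.57, 1.22, 0.839, 0.365 and 0.383 FPKM at E17, PN1, PN10, PN28 and PN90. Levels of cells and ventricles were not tested against each other. The part of cell isolation in the Myc values was not tested either. The mitochondrial ribosomal proteins, which serve the separate ribosome of mitochondria, went the other way from the cytoplasmic ones in cardiomyocytes. Of 75 tested, 74 were higher and 0 lower in later cardiomyocytes (median log2 change 1.29), where 36.9% of all genes were higher. With FPKM as deposited 69 were higher, where 3363 of all genes were. Mrps36, Mrps24 and Mrpl37, which had the smallest adjusted p of the list and not its largest changes, had log2 changes of 1.74 ± 0.11, 1.57 ± 0.11 and 1.77 ± 0.12 (limma adjusted p between 1.61e-05 and 2.13e-05). The list was taken by symbol (Mrpl or Mrps and a number), so a place in that ribosome was not checked for each of these genes. In later fibroblasts 7 of the 75 were higher and 17 lower, where 19.7% of all genes were higher and 21.4% lower. In ventricles 32 of 77 had a rising slope and 0 a falling one, where 19% of all genes had a rising slope and 16.2% a falling one. With FPKM as deposited 5 had a rising slope and 2 a falling one, where 1271 of all genes had a rising slope and 3445 a falling one.

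Near-identical copies limit single values. The mouse genome holds many processed pseudogenes of these genes, and 160 named ribosomal protein pseudogenes listed in the tables summed to between 1.94% and 3.36% of the members' FPKM per library. In cardiomyocytes their sum was 3.02% and 3.21% of it at PN67 and PN30, against 3.36% and 3.32% in neonatal libraries. How many fragments of these copies were assigned to the parent genes cannot be read from FPKM, so values of single genes are uncertain. Some genes were listed far below their subunit partners, such as Rps4x, Rpl14, Rpl17, Rpl21, Rpl24 and Rps23 in the cell libraries. Whether copies had a part in these low values was not tested.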

How the data were processed

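The deposited tables hold transcript FPKM and coverage for 13 libraries in Cufflinks isoform format. The FPKM values were made by the authors with TopHat2 2.0.5 and Cufflinks 2.1.1 on build mm9, per the submitters' processing notes; the annotation and the multi-read setting are not given in the sources used here. The coverage signal deposited beside each FPKM value was used only as a guide to depth. Transcripts were named through GENCODE M21 (82379 of 94696 matched). Gene FPKM was the sum over transcripts of 200 nucleotides or more; genes with a transcript of status HIDATA or FAIL were left out (no ribosomal protein gene was), as were LOWDATA transcripts (2 of Rpl9).

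Libraries were scaled by median ratios, separately for the 8 cell and 5 ventricle libraries; levels in the text are scaled FPKM unless called deposited, and shares use deposited FPKM. Genes that averaged 1 FPKM or more were tested on log2(FPKM + 1), which understates changes of low genes, with limma 3.58.1 (R 4.3.3; intensity trend; Benjamini-Hochberg over all genes; two-sided; threshold 0.05). The cell fit had 4 classes of 2 libraries (4 residual degrees of freedom), each later class pooling 2 ages; the ventricle fit was a slope on stage order (3 residual degrees of freedom). Isoforms were tested as log2 ratios to the gene's other isoforms (0.5 added), in genes that averaged 5 FPKM or more and had at least 1 FPKM in every library. The fits were tested on simulated data. The alternatives were other scalings, pseudocounts, filters, transcript sets, fits and leaving out each library.

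Named genes were the 6 lowest and 6 highest changes per comparison, members called against the majority, Rps24, Rpl24, the stalk genes, every called isoform in the later-minus-neonatal comparisons and the 3 smallest adjusted p of each other list. The members and lists were chosen with earlier results of these data known. Of the members, 75 passed the filter in cells (Rpl10l, Rpl9-ps1 and Rps12-ps3 did not) and 74 in ventricles, where Rpl9-ps6 failed as well and Rpl10l was listed at 0. Some genes that the naming rule takes are not reported here.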

Additional observations from a re-analysis of the deposited data

Results flagged for a closer look

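Each value here is a change in cardiomyocytes (later minus neonatal) minus the same change in fibroblasts, and each passed limma's interaction test at an adjusted p below 0.05. The test called 66 of the 75 ribosomal protein genes, all lower. Among the named genes the differences of the log2 changes were -2.77 for Rpl24, -1.99 for Rps24, -1.40 for Rpl7a, -1.33 for Rpl17, -1.26 for Rps12, -1.16 for Rps19bp1, -0.77 for Rplp0, -0.59 for Rplp2 and -0.48 for Rplp1.

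For isoform shares the differences in percentage points were 43.3 for Rpl15-202, -21.1 for Rpl15-201 and -18.4 for Rpl15-203. They were 32.3 for Rpl21-201, 31.0 for Rps2-208, 29.3 for Rps24-201, -29.3 for Rps24-202, 21.0 for Rpl27-201, -14.4 for Rpl27-202, 19.1 for Rpl10a-201 and 16.9 for Rpl24-202. Shares of a gene's isoforms are not independent. Rps24 had only 2 transcripts, so its values are the same change seen from both sides. Neonatal cardiomyocytes and neonatal fibroblasts already differed in Rps24-201, with shares of 20.2% and 19.0% against 48.0% and 46.3% (limma adjusted p = 0.00169). Later cardiomyocytes and later fibroblasts had 48.8% and 38.4% against 44.5% and 39.0% (limma adjusted p = 0.687).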

How the results depend on the processing

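Of 1611 values of named genes under the alternatives, 1488 kept their direction and their side of the threshold, 78 lost the call, 44 gained it and 1 reversed: Rps29 in later cardiomyocytes minus later fibroblasts was -0.25 with mitochondrially encoded genes removed and equal sums. Of 152 isoform values 132 kept theirs and 20 lost the call. In fibroblasts, later minus neonatal, the counts lower and higher were 62 and 0 with FPKM as deposited, 63 and 0 with equal sums, 11 and 1 with no filter on low values, and 8 and 0 when only the 2 classes compared were fitted. For neonatal cardiomyocytes minus neonatal fibroblasts the lower count was 43 with equal sums, 7 with no filter and 30 with only the 2 classes. Ventricle slopes fell for 31 as deposited, 39 with equal sums, 1 with no filter and 2 when PN10 and later were set against E17 and PN1. Fibroblast isoforms called were 2 with a pseudocount of 0.1. Over all genes, the fibroblast counts lower and higher were 4656 and 1474 as deposited, and 4703 and 1489 with equal sums. Neonatal cardiomyocytes were lower than neonatal fibroblasts for 3286 of all genes with equal sums. Ventricle slopes fell for 3445 of all genes as deposited and for 2889 with equal sums. The cause of the shifts in the members' counts was not tested, other than that scaling also moves the median of all genes.

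Leaving out 1 library gave 72 to 75 lower genes in cardiomyocytes, 4 to 22 lower and 0 to 3 higher in fibroblasts, 51 to 67 for the difference of changes, 2 to 17 between neonatal cells, 70 to 71 between later cells, 0 to 15 falling slopes in ventricles, and 10 to 11 cardiomyocyte and 0 to 3 fibroblast isoforms. A class left with 1 library is assumed to vary like the others. No paired analysis was possible because the labels give no replicate numbers that tie libraries of one class to those of another. Limits: classes hold 2 libraries, depth is unknown beyond relative coverage, and fragments from near-identical copies cannot be told apart.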
